A study of Mus musculus with 24 samples.

Results

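The interferon-inducible GTPases described here are 10 genes of a pair of related families, taken by gene symbol from the table of 17696 genes measured in the study. The guanylate-binding proteins (GBPs) Gbp2, Gbp3, Gbp5 and Gbp7 lie in a single cluster, and in mm10 they run from Gbp5 (chromosome 3, 142496934 to 142522344) through Gbp7 (142530336 to 142550151) and Gbp3 (142560044 to 142573213) to Gbp2 (142620663 to 142638008), all on the plus strand. Of the immunity-related GTPases (IRGs), Irgm1 (48865245 to 48871420), Tgtp1 (48985329 to 48992246) and Tgtp2 (49057196 to 49064212) lie on the minus strand of chromosome 11, Igtp (58199556 to 58207592) and Irgm2 (58214977 to 58222783) on its plus strand, and Iigp1 on chromosome 18 (60373616 to 60392629). All 10 were found, all had reads in cytokine-treated cells, and all 10 would also have passed the edgeR filter on low counts. RNA was sequenced from MIN6 cells, a mouse insulinoma line with β cell properties, in 6 groups of 4 libraries. The 3 stable lines, made with lentiviral vectors, carried a scrambled sequence (Scr), an antisense inhibitor of miR-146a-5p (ZIP) or an overexpressed miR-146a-5p (OE), and each was used untreated (Scr, ZIP, OE) or after 24 h with a cytokine mix (Scr+Cy, ZIP+Cy, OE+Cy) of IL-1β (5 ng/ml), IFNγ (100 ng/ml) and TNFα (10 ng/ml). All lines had been under puromycin (1 µg/ml, 7 days) and were expanded from single clones, and the OE vector had another backbone and fluorescent protein than the vector of Scr and ZIP, so that microRNA, clone and, for OE, vector cannot be told apart in a comparison of lines. The labels number the libraries 1 to 4 within each group, with a code for each number that all 6 groups share and whose meaning is not given, and do not say whether a number is a separate culture, so the p-values measure only the spread between these libraries, which may be technical.

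GBPs are large GTPases of the dynamin superfamily that interferons induce in almost any cell, and that assemble as coats on intracellular vacuoles and bacteria. IRGs are smaller GTPases, and many of those of mice have the same inducers. The members with a lysine in the first nucleotide-binding motif (GKS type, here Iigp1, Tgtp1 and Tgtp2) load onto pathogen vacuoles and break them open, whereas those with a methionine there (GMS type, here Irgm1, Irgm2 and Igtp) sit on the cell's own membranes and hold the GKS proteins inactive. IFNγ acts on these genes through a pair of promoter elements, the GAS element and the ISRE, of which the ISRE is bound by IRF1. IL-1β and TNFα act mainly through NF-κB, and miR-146a-5p is known for silencing adaptors of the IL-1 receptor pathway.

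The promoters are shown first, since the members rose together with cytokines and these are the sequences through which IFNγ is known to act on such genes. RefSeq promoter windows (GRCm38.p6, 250 bases before to 50 bases after the start) were at hand for 9 of the 10 members, with 2 windows for Gbp3. The GAS letters searched were TTCNNNGAA and the ISRE core letters were GAAANNGAA, each on both strands, and the GAS letters read the same on either strand. In the windows printed below, 5′ to 3′ in the direction of the gene, capitals mark these matches. The first is the Gbp2 promoter (chr3:142620413-142620712, plus strand), with an ISRE core match alone, and the second that of Gbp5 (chr3:142496684-142496983, plus strand), with GAS and ISRE core matches. The third is that of Irgm1 (chr11:48871371-48871670, minus strand), with overlapping ISRE core matches, and the last is that of Tgtp1 (chr11:48992197-48992496, minus strand).
Gbp2: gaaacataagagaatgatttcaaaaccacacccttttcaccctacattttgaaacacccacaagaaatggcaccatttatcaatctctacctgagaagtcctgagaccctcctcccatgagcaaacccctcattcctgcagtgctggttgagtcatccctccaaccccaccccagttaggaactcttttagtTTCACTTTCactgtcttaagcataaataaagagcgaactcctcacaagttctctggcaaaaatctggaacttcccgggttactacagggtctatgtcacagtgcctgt
Gbp5: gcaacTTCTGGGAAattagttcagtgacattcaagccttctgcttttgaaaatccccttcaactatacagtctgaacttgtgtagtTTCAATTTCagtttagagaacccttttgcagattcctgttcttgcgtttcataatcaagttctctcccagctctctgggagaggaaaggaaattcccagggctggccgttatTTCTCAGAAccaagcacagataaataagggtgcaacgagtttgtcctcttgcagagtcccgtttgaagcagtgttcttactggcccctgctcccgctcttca
Irgm1: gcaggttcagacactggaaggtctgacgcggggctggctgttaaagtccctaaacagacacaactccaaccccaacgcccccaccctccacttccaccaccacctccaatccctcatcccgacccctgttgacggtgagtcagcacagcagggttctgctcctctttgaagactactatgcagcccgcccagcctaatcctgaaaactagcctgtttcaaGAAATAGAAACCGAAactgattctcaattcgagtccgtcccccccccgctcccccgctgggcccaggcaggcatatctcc
Tgtp1: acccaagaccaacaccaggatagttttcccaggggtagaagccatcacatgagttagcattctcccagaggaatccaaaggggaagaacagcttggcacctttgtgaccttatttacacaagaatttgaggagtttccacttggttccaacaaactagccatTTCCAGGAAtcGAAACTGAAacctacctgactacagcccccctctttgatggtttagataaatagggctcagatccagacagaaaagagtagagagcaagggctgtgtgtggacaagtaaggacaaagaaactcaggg

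An ISRE core match was present in a window of each of the 9 members looked at (all but Iigp1), whereas 8.56% of all 32851 promoter windows hold these letters. A GAS match was present in 6 of the 9 (Gbp5, Gbp7, Irgm2, Igtp, Tgtp1 and Tgtp2), against 8.30% of all windows, and the same 6 held both, against 1.07%. The IRG and GBP windows differed in layout. In the 5 IRG windows the ISRE core read forward and, in Irgm2, Igtp, Tgtp1 and Tgtp2, followed a GAS match after 2 bases. This spacing was chosen after it was seen in these genes. It occurred in 8 of the 32851 windows, and 4 of the 8 genes were these members. These 4 are not separate occurrences, since the windows of Tgtp1 and Tgtp2 share sequence, as do those of Igtp and Irgm2. In the GBP windows the ISRE core read in reverse, and no GAS match preceded it at that spacing. The 30 bases around the joined matches are shown for the 4 genes, in the direction of the gene, with the matches in capitals. They lie at chr11:48992310-48992339 for Tgtp1 and chr11:49064269-49064298 for Tgtp2 (minus strand) and at chr11:58199506-58199535 for Igtp and chr11:58214897-58214926 for Irgm2 (plus strand).
Tgtp1: gccatTTCCAGGAAtcGAAACTGAAaccta
Tgtp2: gccatTTCCAGGAAtcGAAACCGAAaccta
Igtp: gccatTTCTAGGAActGAAACTGAAagctg
Irgm2: gccatTTCCAGGAActGAAACTGAAagctg

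**Figure D1:**
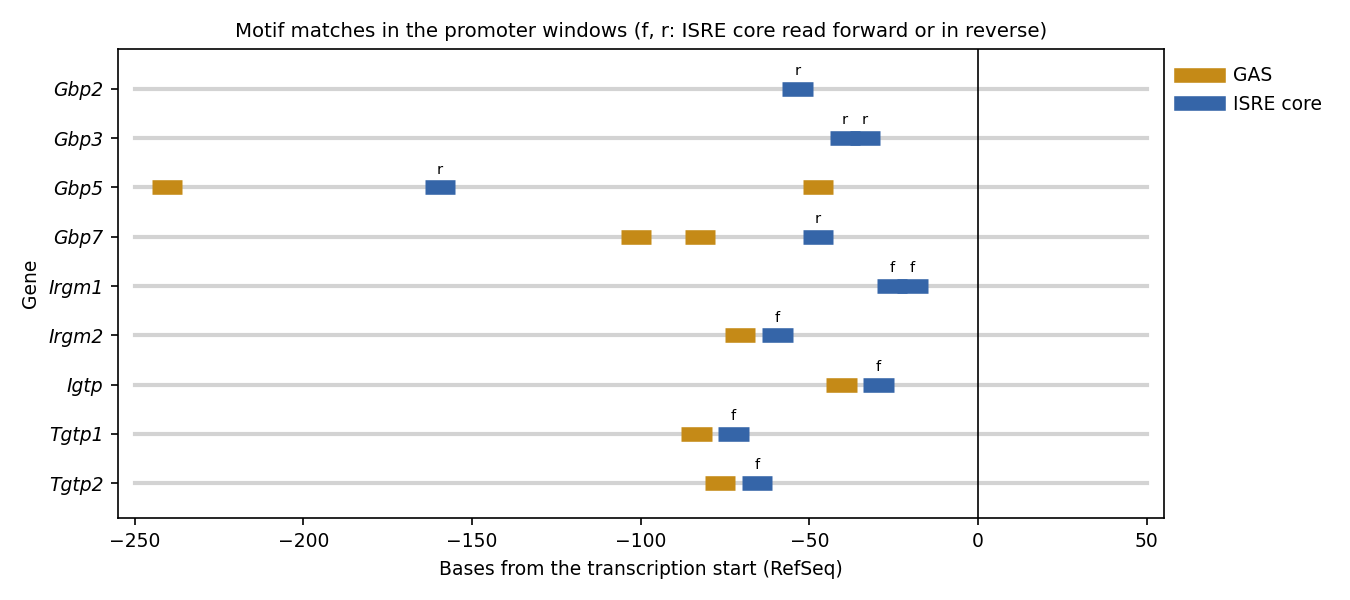
Positions of GAS (TTCNNNGAA) and ISRE core (GAAANNGAA) letter matches in the promoter window of each of 9 GTPase genes, in bases from the RefSeq transcription start (x axis), with the gene on the y axis and f or r for an ISRE core read forward or in reverse. The GAS match of Irgm2, Igtp, Tgtp1 and Tgtp2 stands 2 bases before the ISRE core, and the upstream window of Gbp3 is shown alone because its other window holds no match.

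These positions describe letters only, and binding was not measured. Some members are close copies of each other, which limits how well their reads can be assigned. Of the distinct 100-base stretches in the GENCODE M21 transcripts, 73.1% of those of Tgtp1 and 76.8% of those of Tgtp2 also occur in another gene, chiefly each other, and the levels of this pair are therefore uncertain singly. The share was 10.0% for Gbp7, mostly with the unnamed model Gm43802, 5.16% for Igtp and 3.01% for Irgm2, which share stretches with each other, and under 1% for Gbp3 and Gbp5. No such stretch was shared by Gbp2, Irgm1 or Iigp1. Between 41.8% and 50.5% of the summed Tgtp reads of a treated library were assigned to Tgtp2, and a test on the sum is given where it matters.

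Between 26657792 and 37168232 reads were assigned to genes per library (median 30701023), so that a count of 0 allows up to 0.113 CPM (reads scaled to a common library total by TMM, the trimmed mean of M-values) in the shallowest library, for counting error only. The 9 β cell markers looked at reached 1 CPM in every group and summed to 25895 to 52211 CPM. Their sum was 48587 to 52211 CPM in OE and 30406 to 39777 CPM in OE+Cy. With cytokines their median log2 fold change was -0.72 in OE cells, -0.10 in Scr cells and -0.23 in ZIP cells. The response of 7 of the 9 was lower in OE than in Scr cells, where that of 20.0% of all genes differed. Of 7 macrophage and blood markers 6 were listed, with a sum of at most 4.82 CPM. Of 6 lymphocyte markers 1 was listed, at no more than 0.10 CPM. In OE the macrophage and blood sum was 2.10 to 4.82 CPM, above the OE mean of Gbp2 (0.94 CPM). By the call defined below, Cd14 was higher in OE than in Scr (log2 fold change 5.14) and in OE+Cy than in Scr+Cy (3.62). Csf1r was lower in OE+Cy than in Scr+Cy (-5.47). Itgam was higher in ZIP than in Scr (4.72), and Lyz2 in ZIP+Cy than in Scr+Cy (3.73). The part of these markers in the member levels was not tested. Of 5 endothelial and connective tissue markers 4 were listed. Their sum was higher in replicate 1 of Scr (9.71 CPM), ZIP (25.1 CPM) and Scr+Cy (30.8 CPM) than in the other libraries of those groups (at most 2.56, 7.88 and 3.60 CPM). By the same call, Pecam1 was higher with cytokines in Scr (2.94), ZIP (2.54) and OE cells (1.29). In OE against Scr, Pecam1 was higher (3.38) and Pdgfra lower (-3.18). The part of the endothelial and connective tissue markers in the member levels was not tested either. ZIP replicate 4 stood apart in the members themselves, as described with the untreated cells, and the ZIP folds, the untreated correlations and the ZIP level per length are also given without it.

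With cytokines, all 10 GTPase genes rose in Scr cells, and together they summed to 8491 ± 1221 CPM (SD, n = 4) in Scr+Cy against 82.7 ± 42.2 CPM in Scr. A gene was called changed where edgeR's quasi-likelihood test gave an unadjusted p under 0.05 and the fold change reached 1.5, thresholds under which 7.88% of all genes were called higher in this comparison. In bulk RNA, more cells expressing a gene and more RNA per cell cannot be told apart. The median log2 fold change was 7.33 over the 10 members and 0.00 over all genes. Every treated library lay above every untreated library of its line for all 10 members, which was so for 11.5% of all genes in Scr, 13.3% in ZIP and 20.7% in OE cells.

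Gbp2, which targets vacuoles and bacteria and is a prototype of the family, was measured at 0.32, 3.10, 12.2 and 3.62 CPM in Scr replicates 1 to 4 and at 681, 1258, 1187 and 1242 CPM in Scr+Cy. The lowest library was replicate 1 in either group. The log2 fold change was 7.85 ± 0.91 (SE), with an adjusted p of 4.06e-07. Gbp3, a close relative, went from 5.70 ± 5.02 to 1008 ± 200.3 CPM (SD, n = 4; log2 fold change 7.48). Gbp5, known for its part in inflammasome assembly, was the lowest member also per length, at 95.6, 125, 150.2 and 107 CPM in Scr+Cy. Its level in Scr was 0.84 ± 0.55 CPM, and the log2 fold change was 7.17 ± 0.52 (adjusted p = 1.21e-10). Gbp7, which has been tied to NADPH oxidase assembly, had reads in every untreated library. It was at 13.5, 20.1, 28.3 and 17.1 CPM in Scr and at 835, 1151, 1051 and 1174 CPM in Scr+Cy, a log2 fold change of 5.74 ± 0.35 (adjusted p = 3.87e-12).

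The GMS-type IRGs had reads in every untreated library. Irgm1, a regulator of autophagy and of the mitochondrial network, stood at 14.9, 21.2, 26.6 and 18.1 CPM in Scr and at 849, 1059, 1036 and 1013 CPM in Scr+Cy. Its log2 fold change of 5.62 ± 0.29 was the smallest of the 10 (adjusted p = 1.68e-13). Igtp (also known as Irgm3) rose from 13.4 ± 5.96 to 1305 ± 116 CPM and Irgm2 from 8.39 ± 3.71 to 786 ± 40.2 CPM (log2 fold changes 6.61 and 6.56). The GKS-type IRGs were near 0 in Scr replicate 1. Iigp1 was at 0.03, 3.45, 12.6 and 3.31 CPM in Scr and at 830.5, 1234, 1132 and 1131 CPM in Scr+Cy, a rise by 7.83 ± 0.87 on the log2 scale (adjusted p = 2.10e-07). Tgtp1 had no read in Scr replicate 1 and 1.49, 7.09 and 2.29 CPM in the others, against 403, 647, 709 and 597 CPM in Scr+Cy. Tgtp2 rose by 7.86 ± 0.79 on the log2 scale (adjusted p = 3.72e-08), within 1 SE of Gbp2, Iigp1 and Tgtp1 (7.79). The sum of the Tgtp pair rose by 7.81 ± 0.94, much like either copy. Without Scr replicate 3 the log2 fold changes ran from 5.78 (Irgm1) to 9.09 (Tgtp2).

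**Figure D2:**
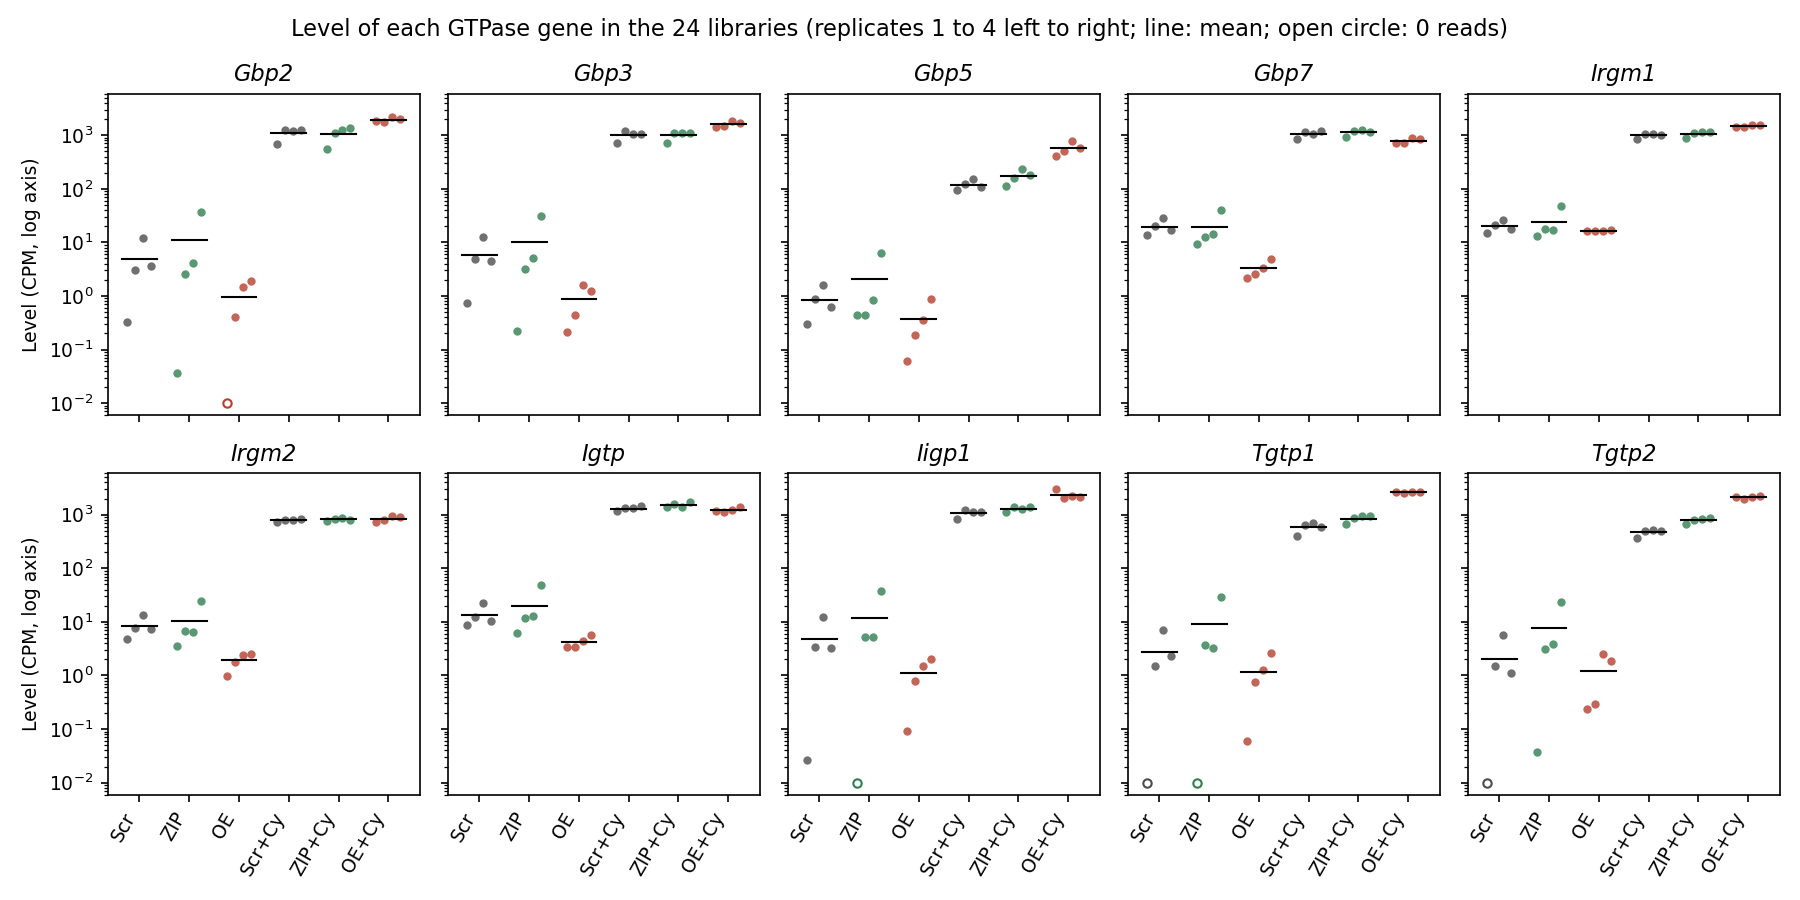
Level of each of the 10 GTPase genes in CPM (y axis, log scale) in the 4 libraries of each of 6 groups (x axis), with replicates 1 to 4 from left to right, the group mean as a line and libraries with 0 reads as open circles at the bottom. Every treated library lies above every untreated library of its line, and in OE+Cy the Tgtp1 libraries (2512 to 2689 CPM) lie above those of Scr+Cy (403 to 709 CPM).

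The same 10 of 10 members rose in ZIP cells, where 7.28% of all genes were called higher, with log2 fold changes between 5.47 (Irgm1) and 6.75 (Iigp1) and a median of 6.45. Without ZIP replicate 4, described with the untreated cells, they ran from 6.06 (Irgm1) to 8.86 (Gbp2) with a median of 8.27. They rose again in OE cells, where 13.0% of all genes were called higher, with log2 fold changes between 6.51 (Irgm1) and 11.17 (Tgtp1) and a median of 10.68. The values of Gbp5 and Tgtp1 reached 11.41 and 11.86 without OE replicate 4, and that of Tgtp2 11.44 without OE replicate 3. In each line, adjusted p-values were at most 1.80e-06 in edgeR's test. The order within the list was alike in all lines in that Irgm1 rose least. In ZIP cells Gbp7 came next at 5.88 ± 0.35, and in OE cells it was again next at 7.93 ± 0.40. The steepest rises in OE cells were those of genes whose reads had almost vanished before treatment. Gbp2 had 0 reads in OE replicate 1 and 0.41, 1.46 and 1.90 CPM in the others, and 1808, 1768, 2176 and 1998 CPM in OE+Cy. Iigp1 went from 1.09 ± 0.83 CPM in OE to 2372 ± 454 CPM in OE+Cy, a log2 fold change of 11.10 ± 1.02. The calls of all 10 members in all 3 lines were kept when any library was left out, under the replicate block, and when Scr replicate 1, ZIP replicates 1 and 4 and Scr+Cy replicate 1 were left out together.

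**Figure D3:**
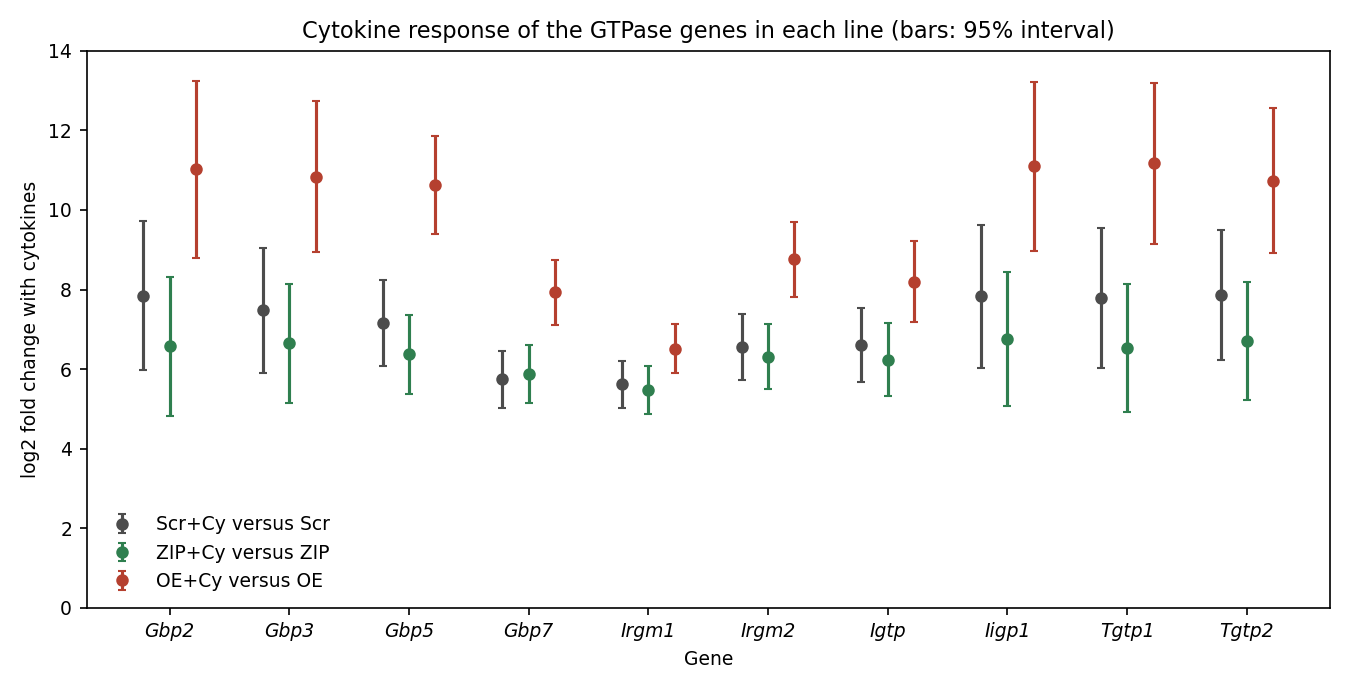
log2 fold change with cytokines (y axis) of each GTPase gene (x axis) in Scr, ZIP and OE cells, with 95% intervals from edgeR. All 30 estimates lie above 5, and those of OE cells reach 11.17 for Tgtp1.

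In untreated cells, the members were low, varied widely between libraries and moved together. Each untreated library was set against the treated mean of its own line. In Scr the median member stood at 0.160% of its treated level in replicate 1, 0.608% in replicate 2, 1.30% in replicate 3 and 0.479% in replicate 4. All 10 members were lowest in replicate 1 and all 10 highest in replicate 3. In ZIP the medians were 0.139%, 0.415%, 0.504% and 3.38%. ZIP replicate 4 was therefore the highest ZIP library for all 10 members, by a median of 10.4 times the mean of the other 3. Its excess over those 3 was a nearly fixed share of the treated level, between 2.25% and 3.42% for every member, although the members differ widely in level. In OE the medians were 0.0123%, 0.0332%, 0.112% and 0.126%, and all 10 members were again lowest in replicate 1. Within the untreated groups, deviations of log2 CPM from the group mean correlated positively in all 45 pairs of members (Pearson r from 0.765 to 0.995, median 0.896, over 12 libraries that share depth and scaling). Without ZIP replicate 4 they were again above 0 in all 45 pairs, from 0.596 to 0.994 with a median of 0.872. Among the 12 treated libraries the correlations ran from -0.111 (Irgm2 and Iigp1) to 0.983 (Gbp3 and Irgm1), with a median of 0.699.

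**Figure D4:**
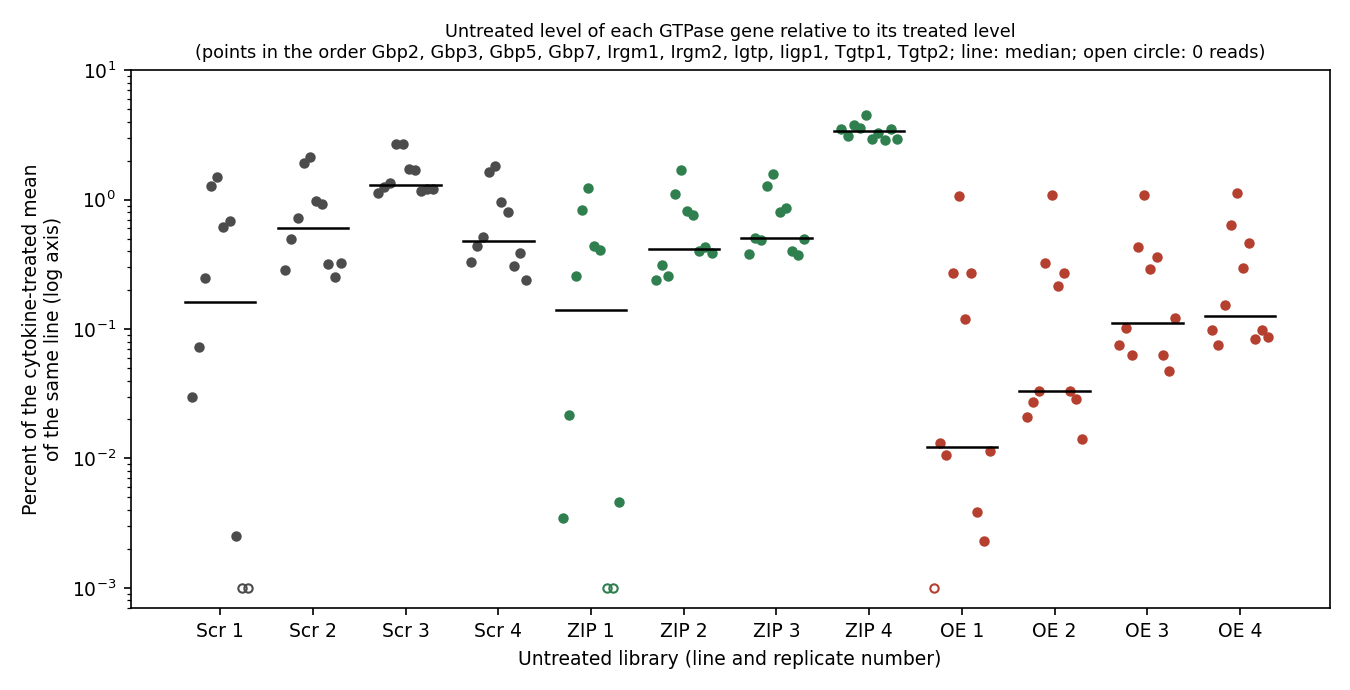
Level of each of the 10 GTPase genes in each of 12 untreated libraries (x axis) as a percent of its mean in the cytokine-treated libraries of the same line (y axis, log scale), with the median as a line and 0 reads as open circles at the bottom. ZIP replicate 4 stands at 3.38%, above every other library, and the OE libraries stand at 0.0123% to 0.126%.

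The comparison of ZIP with Scr sets the line with the inhibitor against the control line before treatment, and its outcome for these genes rested on single libraries. Tgtp1 was at 0.00, 3.65, 3.19 and 29.6 CPM and Tgtp2 at 0.04, 3.06, 3.94 and 23.1 CPM in ZIP replicates 1 to 4, so that replicate 1 lay at the bottom of the Scr range and replicate 4 far above it. These were the only members called (log2 fold changes 1.79 ± 0.80 and 1.92 ± 0.77, adjusted p = 0.101 and 0.0672), 2 of 10 where 7.97% of all genes were called higher and 6.91% lower. The ZIP and Scr libraries overlapped for all 10 members. Without ZIP replicate 4 no member was called higher, and Gbp7 was called lower, at a log2 fold change of -0.69. The count was 0 without Scr replicate 1 or 4, 1 without Scr replicate 2, and 7 higher without Scr replicate 3 or ZIP replicate 1. No share of all genes is given for fits with a library left out, so these counts cannot be set against the shares above. With Scr replicate 1, ZIP replicates 1 and 4 and Scr+Cy replicate 1 left out together, 9 of the 10 log2 fold changes were below 0 and only that of Gbp7 (-0.68) was called. A fit of the Scr and ZIP libraries alone called none.

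In OE cells the untreated levels lay below those of Scr. All 10 log2 fold changes were negative and 6 members were called lower, where 14.4% of all genes were called lower and 11.3% higher. Gbp7 was at 2.15, 2.53, 3.37 and 4.98 CPM in OE against 13.5 to 28.3 CPM in Scr, and Irgm2 at 1.00, 1.80, 2.46 and 2.49 CPM against 4.80 to 13.6 CPM. These groups did not overlap, nor did those of Igtp, 3 of 10 members where 23.7% of all genes lay lower in every OE library than in any Scr library. The log2 fold changes were -2.61 ± 0.36 for Gbp7 (adjusted p = 1.27e-06), -2.11 ± 0.44 for Irgm2 (adjusted p = 0.000266) and -1.66 ± 0.43 for Igtp (adjusted p = 0.00226). Gbp3 (-2.69 ± 0.92, adjusted p = 0.0178), Gbp2 (-2.35 ± 1.08, adjusted p = 0.0760) and Iigp1 (-2.13 ± 1.01, adjusted p = 0.0824) were also called lower, with overlapping libraries. Without Scr replicate 3, the highest Scr library, these last 3 lost the call, at log2 fold changes of -1.90 (Gbp3), -1.28 (Gbp2) and -1.01 (Iigp1). In that fit 3 of 10 were called, with no share of all genes given beside it. Gbp2 also lost it without OE replicate 1 or 2, and Iigp1 without OE replicate 1, 2 or 3. The 4 members that were not called had log2 fold changes of -1.19 (Gbp5), -1.22 (Tgtp1), -0.71 (Tgtp2) and -0.30 (Irgm1, 95% interval -0.83 to 0.22). Irgm1 was at 16.0, 16.2, 16.3 and 16.9 CPM in OE, within the Scr range of 14.9 to 26.6 CPM. With each library left out in turn, Gbp5 ran from -1.97 to -0.67, Tgtp1 from -1.91 to -0.0794 and Tgtp2 from -1.41 to 0.54, so that not all 10 values stayed negative. The high ends were without Scr replicate 3, and the low ends were without OE replicate 4 (Gbp5, Tgtp1) or 3 (Tgtp2).

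In cytokine-treated cells no member was called between ZIP+Cy and Scr+Cy in edgeR's test over all libraries, none had an unadjusted p under 0.05, and DESeq2 called none of the 6 members for which it gave a p, where 7.10% of all genes were called higher and 8.67% lower. Gbp3 was at 1010.1 ± 198 CPM in ZIP+Cy and 1008 ± 200.3 CPM in Scr+Cy, with a 95% interval of the log2 difference from -1.14 to 1.15. The interval was narrowest for Irgm1, from -0.37 to 0.59 around 0.11. In 6 members (Gbp5, Irgm1, Igtp, Iigp1, Tgtp1 and Tgtp2) ZIP+Cy was above Scr+Cy in all 4 same-numbered pairs, where 21.5% of all genes were. Tgtp2 was at 674, 787, 829 and 866 CPM in ZIP+Cy against 368, 505, 509.6 and 490.1 CPM in Scr+Cy, without overlap, 1 of 10 members where 12.6% of all genes lay higher in every ZIP+Cy library. Its log2 fold change was 0.75 ± 0.54 (adjusted p = 0.330). The fit over all 24 libraries shares an estimate of the spread with the far noisier untreated groups. When the 8 libraries of these groups were fitted alone, Tgtp2 was called (0.76 ± 0.11, adjusted p = 0.000229), 1 of 10 where 6.89% of all genes were called higher. The sum of the pair stood at 0.63 ± 0.68 over all libraries (adjusted p = 0.534) and at 0.64 ± 0.13 in these groups alone (adjusted p = 0.00377), where it was called. Tgtp2 took 41.8% to 47.8% of the summed reads in Scr+Cy and 47.1% to 50.5% in ZIP+Cy, and the part of read assignment in its difference was not tested. Tgtp1, its near-identical copy, was then at 0.54 ± 0.16 with an adjusted p of 0.0259, under the fold limit. Gbp5 (0.53, adjusted p = 0.0634), Igtp (0.23, adjusted p = 0.0665) and Iigp1 (0.27, adjusted p = 0.0891) also had an unadjusted p under 0.05 in this fit, again under the fold limit, so that 5 of 10 members did, all higher in ZIP+Cy, where 17.9% of all genes were higher at that p with no fold limit.

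OE+Cy and Scr+Cy cells differed, and the members split. Gbp5, Tgtp1, Tgtp2 and Irgm1 were called higher in OE+Cy, 4 of 10 where 13.7% of all genes were called higher and 14.8% lower. Tgtp1 was at 2642, 2512, 2685 and 2689 CPM in OE+Cy against 403 to 709 CPM in Scr+Cy, and Tgtp2 at 2121, 1953, 2163 and 2202 CPM against 368 to 509.6 CPM. The lowest OE+Cy library was more than 3 times the highest Scr+Cy library for either copy. Their log2 fold changes were 2.16 ± 0.62 (adjusted p = 0.00508) and 2.17 ± 0.56 (adjusted p = 0.00230), and that of their sum 2.17 ± 0.70. Gbp5 was at 414, 499, 795 and 585 CPM against 95.6 to 150.2 CPM, a log2 fold change of 2.26 ± 0.35 (adjusted p = 6.71e-06). Irgm1 was at 1436, 1439, 1549 and 1539.9 CPM against 849 to 1059 CPM, a smaller difference of 0.59 ± 0.23 (adjusted p = 0.0368), and its call was lost, just under the fold limit, without Scr+Cy replicate 1 or OE+Cy replicate 3 or 4.

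Gbp2, Gbp3 and Iigp1 were also higher in every OE+Cy library than in any Scr+Cy library, at 1937 ± 188, 1603 ± 188 and 2372 ± 454 CPM against 1092 ± 276, 1008 ± 200.3 and 1082 ± 174 CPM, which with the 4 called members makes 7 of 10 where 22.5% of all genes lay apart in this direction. Their log2 fold changes of 0.83, 0.67 and 1.13 did not pass in the fit of all libraries (adjusted p = 0.298, 0.323 and 0.135). In a fit of the 8 OE+Cy and Scr+Cy libraries alone they were called, which made 7 of 10, where 13.5% of all genes were called higher. The other 3 members were not called in either fit. Igtp was at 1174, 1148, 1249 and 1387 CPM in OE+Cy against 1158, 1309, 1314 and 1441 CPM in Scr+Cy, and Irgm2 at 725, 793, 931 and 902 CPM against 731, 783, 804 and 825 CPM, so the groups overlapped for these 2 neighbours on chromosome 11. Gbp7 was at 721, 711, 883 and 831 CPM in OE+Cy, all but the third below the lowest Scr+Cy library (835 CPM), with a log2 fold change of -0.42 ± 0.28 (adjusted p = 0.215). In the fit of these groups alone it was -0.41 ± 0.11 (adjusted p = 0.00894), under the fold limit. The group order by mean was therefore not the same for all members. OE+Cy was the highest group, apart from every other, for Gbp2, Gbp3, Gbp5, Irgm1, Iigp1, Tgtp1 and Tgtp2, as it was for 7.42% of all genes, whereas ZIP+Cy had the highest mean for Gbp7 and Igtp, and all treated groups overlapped with their neighbour for Gbp7, Irgm2 and Igtp.

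**Figure D5:**
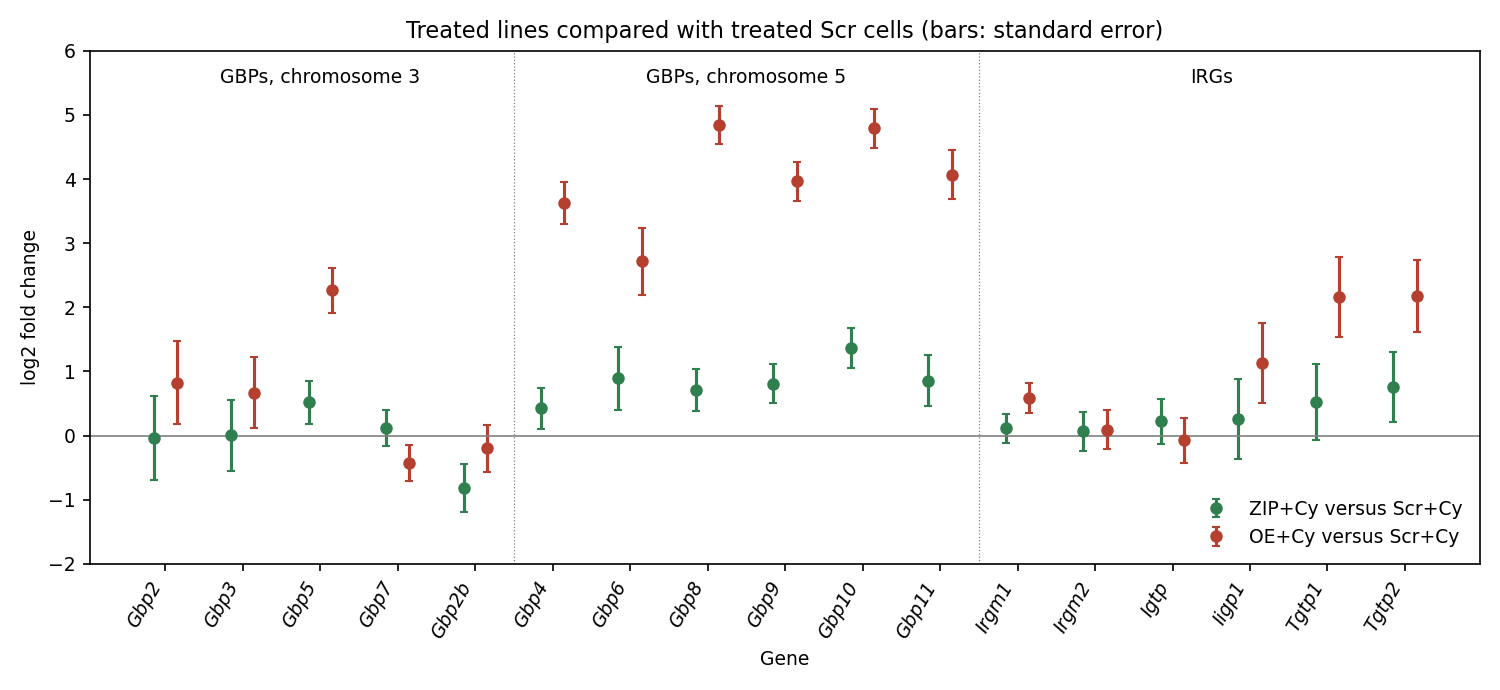
log2 fold change of ZIP+Cy and OE+Cy against Scr+Cy (y axis, bars are standard errors) for 11 GBP genes in 2 chromosomal clusters and 6 IRG genes (x axis). In OE+Cy the chromosome 5 genes lie between 2.72 (Gbp6) and 4.84 (Gbp8), above the chromosome 3 genes, of which Gbp5 reaches 2.26.

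The response itself, the treated against the untreated level, was compared between lines as an interaction. For ZIP against Scr no member passed an adjusted p of 0.05 in edgeR, none had an unadjusted p under 0.05, and DESeq2 called none of 6, in a comparison in which 0.0565% of all genes passed. For OE against Scr all 10 responses were larger and 6 passed, where 20.0% of all genes passed. With the replicate number as a block all 10 passed (adjusted p from 0.000117 to 0.0427), where 25.4% of all genes passed. Without the block, the difference in log2 fold change was 3.46 ± 1.04 for Gbp5 (adjusted p = 0.0204), 3.38 ± 1.18 for Tgtp1 (0.0459) and 3.36 ± 1.08 for Gbp3 (0.0301). It was 2.20 ± 0.54 for Irgm2 (0.00488), 2.19 ± 0.45 for Gbp7 (0.00128) and 1.59 ± 0.55 for Igtp (0.0439). The sum of the Tgtp pair differed by 3.15 ± 1.17 and did not pass (adjusted p = 0.0611). The parts of the difference in response were not alike between members. For Gbp7, Irgm2 and Igtp it came with a lower untreated level and overlapping treated levels. For Gbp5 and Tgtp1 it came with a higher treated level, and their untreated differences (-1.19 and -1.22) were not called. For Gbp3 it came with a lower untreated level (-2.69), and its treated difference (0.67) was not called in the fit of all libraries. With each library left out in turn, the difference ran from 2.95 to 4.24 for Gbp5, from 2.25 to 4.07 for Tgtp1 and from 2.58 to 3.89 for Gbp3, the low ends without Scr replicate 3 and the high ends without OE replicate 4 (Gbp5, Tgtp1) or 3 (Gbp3). Irgm1 had the smallest difference, 0.90 ± 0.35 (adjusted p = 0.0714). The calls of Gbp7 and Irgm2 were kept in all 16 fits that left out a library, whereas Igtp and Tgtp1 each lost theirs in 12, Gbp3 in 4 and Gbp5 in 1. The count of 6 fell to 2 without Scr replicate 3 and to 3 without OE replicate 1, OE replicate 2 or OE+Cy replicate 3. It rose to 10 without Scr replicate 1 and with the 4 libraries named above left out together. The share of all genes that passed in those fits is not given, so these counts cannot be set against the 20.0%.

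Levels of different members can be compared only per length, for which the curated transcript of each gene in GENCODE M21 was used. In Scr+Cy, Igtp was the most abundant at 646 ± 57.2 CPM per kb, followed by Irgm1 and Gbp2, and Gbp5 was the least abundant at 39.1 ± 7.81 CPM per kb. In OE+Cy, Tgtp1 led at 932 ± 29.3 CPM per kb, from 209 ± 46.8 in Scr+Cy, and Gbp7 came last at 140.1 ± 15.0 CPM per kb. In the untreated groups Irgm1 led each time, at 8.94 ± 2.21 CPM per kb in Scr, 10.6 ± 7.20 in ZIP and 7.24 ± 0.17 in OE. Without replicate 4 the ZIP level of Irgm1 was 7.06 ± 1.16 CPM per kb (n = 3). Gbp5 was the lowest in each untreated group.

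The other members of these families were looked at from a fixed list. All 7 other GBPs (Gbp2b in the chromosome 3 cluster, and Gbp4, Gbp6, Gbp8, Gbp9, Gbp10 and Gbp11 on chromosome 5) were called higher with cytokines in each line, where 7.88% of all genes were in Scr, 7.28% in ZIP and 13.0% in OE. Gbp8 and Gbp11 had at most 3 reads in an untreated library, so no median fold change is given. Against Scr+Cy, 6 of the 7 were called higher in OE+Cy (13.7% of all genes), all on chromosome 5, with a median of 3.96 where all genes had 0.01. A larger response in OE than in Scr cells passed for 1 of the 7, Gbp6 (3.59), where 20.0% of all genes differed in response. Gbp8 was at 22.6 ± 3.40 CPM in OE+Cy and 0.79 ± 0.46 CPM in Scr+Cy, and Gbp10 at 80.4 ± 12.6 against 2.94 ± 1.31 CPM. Gbp2b, flanked by Gbp3 and Gbp2, was not called (-0.20 ± 0.37, adjusted p = 0.676). In ZIP+Cy 4 of the chromosome 5 genes were called higher than in Scr+Cy (7.10% of all genes), up to 1.36 ± 0.31 for Gbp10, and Gbp2b was called lower (-0.81 ± 0.37, adjusted p = 0.113). The difference between the 2 clusters was not tested. Shared sequence was not measured for these 7 genes, so how well reads can be told apart between them is not known and their single levels are uncertain.

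Of 23 other IRGs and relatives 11 were listed, and 10 were called higher with cytokines in each line (7.88%, 7.28% and 13.0% of all genes in Scr, ZIP and OE), all but Irgq (-0.06 in Scr), which is not known to be interferon-inducible. In OE+Cy 9 of the 11 were called higher than in Scr+Cy (13.7% of all genes), with a median of 1.95, among them the very large GTPase Gvin1 (3.74 ± 0.38), at 43.3 ± 10.5 against 3.28 ± 1.95 CPM. Gm4070, named after its values were seen, had nearly the same values (3.71 ± 0.37, at means of 43.2 against 3.34 CPM), so the level of either is uncertain singly. In ZIP+Cy 5 were called higher (7.10% of all genes), with Gvin1 (1.43 ± 0.38) and Gm4070 (1.42 ± 0.37) at the top. None of the 11 passed the test of a different response in OE cells, where 20.0% of all genes did. More distant GTPases of the dynamin superfamily, many of which fuse or cut membranes, were looked at too. Of 12 listed, 2 were called higher in Scr+Cy, against 7.88% of all genes, the antiviral Mx2 (3.57) and Mx1 (2.40), with a median of -0.02, and in the comparison of OE+Cy with Scr+Cy 2 were higher and 2 lower, near the shares over all genes (13.7% and 14.8%).

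The interferon pathway upstream of the members responded in all lines. Of 20 listed genes of IFNγ signalling, 13 were called higher with cytokines in Scr cells, 14 in ZIP cells and 13 in OE cells, against 7.88%, 7.28% and 13.0% of all genes. Irf1, a transcription factor that binds the ISRE, went from 28.3 ± 1.90 to 412 ± 31.6 CPM in Scr cells. In OE+Cy against Scr+Cy 7 of the 20 were called higher and none lower (13.7% and 14.8% of all genes). In ZIP+Cy against Scr+Cy 1 was called higher and 3 lower (7.10% and 8.67% of all genes), the most lowered being Irf8 (-2.35). Irf1 was at 729.5 ± 81.5 CPM in OE+Cy (a log2 difference of 0.83 ± 0.09, adjusted p = 5.18e-08), the receptor chain Ifngr2 at 90.0 ± 17.7 against 43.2 ± 5.30 CPM (1.06 ± 0.11), and Socs1, the feedback inhibitor of JAK kinases, was higher by 1.59 ± 0.19. The ligand-binding chain Ifngr1 was level in all groups, at group means of 28.3 to 35.7 CPM. The largest difference between OE+Cy and Scr+Cy in this list was also that of Irf8, a factor better known from myeloid cells, at 13.1 ± 4.45 CPM in OE+Cy and 0.90 ± 0.51 CPM in Scr+Cy.

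The response of 10 of the 20 genes differed between OE and Scr cells, all in the direction of a larger response in OE, and that of 1 between ZIP and Scr cells, where 20.0% and 0.0565% of all genes passed. Among those 10 were Irf1 (1.28 ± 0.13), Ifngr2 (1.69 ± 0.16), Socs1 (2.00 ± 0.40) and Nlrc5 (2.16 ± 0.63), the activator of MHC class I genes. Of 5 listed ligands and receptors of type I and III interferons, Ifnar2 alone was called higher in Scr+Cy (1.01) and in ZIP+Cy (1.07) against untreated cells. In OE+Cy against OE 4 of the 5 were called higher (Ifnar2, Ifnb1, Ifnl2 and Ifnl3), and in OE+Cy against Scr+Cy 2 were, Ifnl2 and Ifnl3, where 13.0% and 13.7% of all genes were called higher. Ifnl3, a type III interferon, had no read in 20 libraries outside OE+Cy and 0.47 ± 0.08 CPM there, at most 16 reads per library.

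Genes through which GTPases reach membranes or act there were also looked at. The IRGs need the ATG8 conjugation system to find their target membrane, and prenylation enzymes attach the lipid anchor of Gbp2 and Gbp5. None of 10 ATG8 genes and none of 6 prenylation enzymes was called in Scr+Cy or ZIP+Cy against their untreated cells. Of all genes 7.88% and 7.28% were called higher there, so a count of 0 in such short lists is near that share. Of the 6 prenylation enzymes, 3 had a smaller response in OE than in Scr cells (20.0% of all genes differed in response), and Zmpste24 was called lower in OE+Cy than in Scr+Cy (-0.69). In OE+Cy against OE 1 of the 10 ATG8 genes was called higher, Gabarapl1 (0.73), a share near the 13.0% of all genes. A larger response in OE than in Scr cells passed for 2 of the 10, near the 20.0% of all genes that differed. Of 9 ubiquitin and lectin factors 4 were called higher in Scr+Cy (7.88% of all genes), led by Lgals9 (6.82 ± 0.68), a galectin that binds glycans of damaged vacuoles. Of 7 genes of the non-canonical inflammasome, which GBPs help to assemble on bacterial lipopolysaccharide, 4 were called higher in Scr+Cy (7.88% of all genes). In OE+Cy against Scr+Cy 2 of the 7 were called higher and 1 lower (13.7% and 14.8% of all genes), with a median of -0.11. Pycard was the most raised (4.32), and Il1b was the gene called lower (-0.64). Casp4, the caspase that senses lipopolysaccharide, rose by 6.54 in Scr and 7.84 in OE cells and was higher in OE+Cy than in Scr+Cy by 2.12 ± 0.31 (adjusted p = 3.61e-06).

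Over the 24 libraries the members followed each other closely, since treatment dominates all of them. The log2 CPM of a member correlated with the mean standardized profile of the other 9 at a Pearson r between 0.976 (Gbp7) and 0.997 (Gbp3). Among 13300 other genes with a mean of at least 1 CPM in a group, the profiles most like the mean of the members were those of Gm12250 (r = 0.997), Ifi47 (0.996), Zbp1 (0.996), Cxcl10 (0.994) and Apol9a (0.993), given as a description. Ifi47 was at 180.3 ± 42.6 CPM in Scr+Cy and 566 ± 81.8 CPM in OE+Cy, and Cxcl10 at 629.7 ± 203 and 1465 ± 128 CPM.

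miR-146a-5p, which the lines were built to change, was not measured in these libraries. Its mature sequence in RefSeq (GRCm38.p6, chr11:43374435-43374456, minus strand) is shown with the seed, bases 2 to 8, in capitals, to make plain which letters were searched for in the transcripts.
mmu-miR-146a-5p: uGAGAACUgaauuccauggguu

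A match to the reverse complement of the seed (AGTTCTC) was searched in the 3′ UTRs of protein-coding transcripts. It was present in 11.9% of 20999 genes and in 0 of the 10 members, whose longest 3′ UTR measured between 515 bases (Gbp2) and 3575 bases (Gbp7). No such match says only that these letters are not in the annotated 3′ UTRs.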

How the data were processed

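mRNA from 24 libraries of MIN6 cells (6 groups of 4) was sequenced. The authors deposited estimated counts per gene (30.1% of values are not whole) for 17696 genes with at least 10 reads in all, and a normalised signal in which the deposited counts are divided by the median-ratio size factor of their library. The submitters' processing notes name FastQC, STAR 2.7.8a, the mm10 build, DESeq2 and Partek 11.0.24.0204. The study's methods name other versions of STAR and Partek Flow and a RefSeq transcript annotation for assigning reads to genes; the strand setting is not given in the sources used here.

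Counts were rounded and fitted over all 24 libraries with edgeR 4.0.16 (R 4.3.3; quasi-likelihood F-test, TMM, 6 group means, no filter on low counts), and p-values were adjusted by Benjamini-Hochberg over all genes. As in the study's methods, a change was called where the unadjusted p was under 0.05 and the fold change reached 1.5; a difference in response (an interaction) was called at an adjusted p under 0.05. A standard error is the log2 fold change divided by the square root of F. CPM values are counts over TMM-scaled library totals, and log2 profiles used a prior count of 2. The fit was tested on counts simulated for Scr and Scr+Cy with a small spread fixed for all genes. Untreated members such as Gbp2 (4.82 ± 5.14 CPM in Scr, SD) varied far more, so the fit was not tested at their spread. Depth ran from 26657792 to 37168232 assigned reads, and 3 reads set the detection floor.

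Alternatives were DESeq2 1.42.0, its size factors in edgeR, the edgeR low-count filter, a replicate block, only the groups compared, other thresholds, each library left out, the Tgtp pair summed and, chosen after seeing the data, 4 libraries left out together and ZIP replicate 4 left out of correlations and levels per length, and the summed Tgtp pair in only the groups compared. Same-numbered libraries deviated together (every correlation over 0.1 across 12670 genes) between treated and untreated cells of each line (0.162 to 0.626), between Scr and ZIP (0.141 to 0.634) and between Scr+Cy and ZIP+Cy (0.191 to 0.370); the labels give each number a code shared by all groups and do not say what it marks.

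Promoters and microRNA came from RefSeq (GRCm38.p6), gene positions from the annotation given with the authors' counts, and transcript lengths and 3′ UTRs from GENCODE M21. The members and the lists of related genes were chosen with earlier results of these data known. All members are described; from the pathway lists, genes fixed by name and the most changed gene of each list are named, and the 5 genes with the profile most like the members.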

Additional observations from a re-analysis of the deposited data

Results flagged for a closer look

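Of 60 groups of 4 libraries (10 members in 6 groups), 13 had a library whose gap to its nearest neighbour, as a share of the range, exceeded Dixon's critical value for 4 libraries, where chance gives about 1 in 20. In untreated ZIP this was the case for all 10 members, with replicate 4 as the high library each time. The share was 0.893 for Gbp2, 0.842 for Gbp3, 0.933 for Gbp5 and 0.835 for Gbp7. It was 0.857 for Irgm1, 0.846 for Irgm2, 0.844 for Igtp, 0.862 for Iigp1, 0.877 for Tgtp1 and 0.831 for Tgtp2. The members are not independent of each other here, since their untreated levels move together. In the treated groups the library apart was the lowest and was replicate 1, with a share of 0.876 for Gbp2 and 0.862 for Tgtp2 in Scr+Cy and of 0.904 for Gbp3 in ZIP+Cy.

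The cytokine response differed between OE and Scr cells, by the interaction test in edgeR, for 6 members, where 20.0% of all genes passed. The difference in log2 fold change was 3.36 for Gbp3, 3.46 for Gbp5 and 3.38 for Tgtp1, and 2.19 for Gbp7, 2.20 for Irgm2 and 1.59 for Igtp. Igtp and Tgtp1 each lost the call in 12 of the 16 fits that left out a library. Summed with Tgtp2, Tgtp1 did not pass in the same test (3.15 ± 1.17, adjusted p = 0.0611).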

How the results depend on the processing

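The cytokine response of all 10 members kept its direction and its call in each line under every alternative that gave a value. DESeq2 gave no p for Gbp2, Iigp1, Tgtp1 and Tgtp2 in any comparison, so it was read over the other 6. For all 10 members the library with the most pull on the DESeq2 fit (largest Cook's distance) was ZIP replicate 4. Its distance was 6.31 (Gbp2) to 8.57 (Tgtp1) for those 4 and at most 3.83 (Igtp) for the other 6. Scalings moved the median of all genes by under 0.1. For ZIP against Scr the count called (2) became 0 in a fit of these groups alone, 0 at an adjusted p under 0.05, 1 with the 4 libraries left out together and 0 to 7 when leaving out each library. For OE against Scr (6) it ran from 3 to 6 when leaving out each library. It was 4 at an adjusted p under 0.05 and 9 with the 4 libraries out. In DESeq2 it was 4 of the 6 members with a p, and the called members Gbp2 and Iigp1 had none. For ZIP+Cy against Scr+Cy (0) it became 1 in the fit of these groups alone and 1 with the 4 libraries out, and for OE+Cy against Scr+Cy (4) it became 7 in the fit of these groups alone. The count of larger responses in OE (6) became 10 with the groups of the 2 lines alone, 10 at an unadjusted p, 10 with the 4 libraries out, 7 with the filter on low counts, 4 of 6 in DESeq2, where Igtp lost its call (adjusted p = 0.0553), and 2 to 10 when leaving out each library. Summed with Tgtp2, Tgtp1 lost its call there (adjusted p = 0.0611). For most of these settings no share of all genes is given, so the counts cannot be set against the shares given above. The cause of the shifts in count was not tested.

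With a replicate block, the larger responses in OE numbered 10 and the members called in OE+Cy against Scr+Cy 5. Between OE and Scr, same-numbered libraries correlated at 0.295, -0.129, 0.211 and 0.236 in their deviations (replicates 1 to 4). In ZIP+Cy against Scr+Cy the block turned Gbp3 to -0.0091, with no call either way, and changed no other direction.

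With the 4 libraries out, the log2 fold changes of ZIP against Scr turned to -0.91 (Gbp2), -0.81 (Gbp3), -0.64 (Gbp5), -0.33 (Irgm1), -0.51 (Irgm2), -0.27 (Igtp), -0.30 (Iigp1) and -0.0726 (Tgtp1), and that of Gbp3 in ZIP+Cy against Scr+Cy to -0.12. The differences in response of ZIP turned to 0.71 (Gbp2), 0.69 (Gbp3), 1.08 (Gbp5), 0.39 (Irgm1), 0.56 (Irgm2), 0.45 (Igtp), 0.47 (Iigp1), 0.47 (Tgtp1) and 0.30 (Tgtp2).

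Leaving out each library, directions also turned within these ranges. For ZIP against Scr they were -1.05 to 2.29 (Gbp2), -0.95 to 1.61 (Gbp3), -0.50 to 1.83 (Gbp5), -0.69 to 0.22 (Gbp7), -0.34 to 0.46 (Irgm1), -0.55 to 0.66 (Irgm2), -0.37 to 0.97 (Igtp), -0.43 to 2.46 (Iigp1) and -0.19 to 2.92 (Tgtp1). For OE against Scr the range of Tgtp2 was -1.41 to 0.54. For ZIP+Cy against Scr+Cy they were -0.21 to 0.18 (Gbp2) and -0.13 to 0.15 (Gbp3). For the response of ZIP they were -2.32 to 1.01 (Gbp2), -1.60 to 0.95 (Gbp3), -1.30 to 1.01 (Gbp5), -0.0916 to 0.80 (Gbp7), -0.33 to 0.45 (Irgm1), -0.58 to 0.62 (Irgm2), -0.74 to 0.59 (Igtp), -2.19 to 0.69 (Iigp1), -2.38 to 0.72 (Tgtp1) and -2.39 to 0.49 (Tgtp2). In the shallowest library a count of 0 allows up to 0.113 CPM.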
